A study of Mus musculus with 26 samples.

Results

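RNA-Seq libraries labelled ATRX KD were set directly against RNA-Seq libraries of ATRXΔRBR cells, and the wild-type (WT) libraries were left out of the test. The genes compared had estimated counts that summed over the 4 libraries to more than 10, which were 16485 of the 53801 gene identifiers in the files. ATRXΔRBR cells are female mouse embryonic fibroblasts (MEFs) from which CRISPR/Cas9 removed, in frame, the RNA-binding region (RBR) encoded in an exon of the endogenous Atrx gene, so that a shortened ATRX protein is made. They are 1 clone, picked after puromycin selection. ATRX KD cells are female MEFs that carry an shRNA against Atrx and were selected with puromycin. Whether they are a pool or a clone is not given in the sources used here. The WT cells are female MEFs with intact ATRX. Each genotype had 2 libraries of poly(A)-enriched RNA, and EZH2 and H3K27me3 were also profiled in all 3 genotypes by CUT&RUN, with 2 peak lists each. The comparison addresses how the transcriptome of cells whose ATRX lacks the RBR differs from that of cells where ATRX as a whole was targeted. The paper notes that the RBR also holds a motif that binds the protein HP1.

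ATRX is a chromatin remodeller of the SNF2 family that works with DAXX to deposit histone H3.3 at telomeres, pericentromeric repeats and imprinted loci. It binds RNA, the X-inactivation transcript Xist among others, and has been linked to the placement of Polycomb repressive complex 2 (PRC2). PRC2 methylates histone H3 at lysine 27 through its catalytic subunit EZH2, and the resulting H3K27me3 marks silent developmental genes in fibroblasts and other differentiated cells.

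Over the 6 RNA-Seq libraries, total estimated counts per library ran between 9051693 and 21723647, and mitochondrial genes took 2.13% to 2.77% of them. The paper calls the 2 libraries of a genotype biological replicates, but nothing in the labels says that they came from separate cultures. The p-values thus measure only the spread between these libraries. A chi-square over genes, which is near 1 per gene for sampling noise alone, was 3.25 per gene between the libraries labelled ATRX KD, 24.2 between the ATRXΔRBR libraries and 30.0 between the WT libraries. The raw read files of the WT and ATRXΔRBR libraries share a form of name that those labelled ATRX KD do not have. RSEM, which estimated the counts, assumed a fragment length of 38 bases for the first and 37.55 bases for the second. What these differences record is not given in the sources used here, and they cannot be told apart from the genotype in any result that follows. Nlrp2, Phf1, Cbx7, Suv39h2, Shox2, Nid2, Atp5a1, Hoxb3, Hsp90b1, Stn1 and Malat1 share at least 50 bases of exon with a counted gene on the other strand, and since the strand setting of the counting is not given in the sources used here, reads of such pairs may not be separated.

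Atrx, the gene that the shRNA targets and that carries the deletion, was not lower in the libraries labelled ATRX KD. They had 411 and 550.4 CPM (estimated counts scaled by library size with TMM factors, per 1000000) of Atrx, against 371 and 312 CPM in ATRXΔRBR and 633 and 434 CPM in WT. Both libraries labelled ATRX KD were thus above both ATRXΔRBR libraries, and 1 of them was above 1 WT library. The log2 fold change of ATRX KD against ATRXΔRBR was 0.47 ± 0.16 (SE, n = 2 per group). The SE, here and below, is the size of the fold change over the square root of the test's F statistic. With an adjusted p of 0.053 (edgeR quasi-likelihood test, Benjamini-Hochberg), Atrx was not called. It was called as higher under 13 of 17 alternatives. Per length, Atrx was at 331 and 512 TPM (abundance per transcript length) in the libraries labelled ATRX KD. It was at 175 and 124 TPM in ATRXΔRBR and at 233 and 141 TPM in WT. RSEM gave these transcripts a mean length of 2839 and 2405 bases in the libraries labelled ATRX KD. The lengths were 4524 and 4840 bases in ATRXΔRBR and 4974 and 6292 bases in WT. Reads that lie outside the deleted exon do not report on the deletion, and protein was not measured here. The paper reports, with a western blot, that ATRX protein was depleted in ATRX KD cells and that DAXX protein was decreased too. Whether the RNA came from the cells that were blotted is not given in the sources used here. The libraries are called by their label throughout, since Atrx RNA did not bear the label out.

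Of the 16485 genes, 5734 (34.8%) were called at an adjusted p under 0.05, 2683 (16.3%) as higher and 3051 (18.5%) as lower in the libraries labelled ATRX KD. In 5730 of the called genes the groups did not overlap in CPM, against 68.9% of all genes tested. The median log2 fold change over all genes was -0.02. On the TPM scale, with at least 5 TPM in every library, 66.4% of the calls were higher against 46.8% in the main test, and the median fold change of all genes shifted by 0.19 on the log2 scale. Without 1 of the libraries labelled ATRX KD, 3485 or 3088 genes were called, and without ATRXΔRBR replicate 1 it was 8734. No gene called in the main test was called in the opposite direction under any alternative. Differences of 2-fold or more made up 2612 of the calls, with 1108 higher and 1504 lower. By the fitted fold change, 433 genes were higher and 474 lower by at least 8-fold, and 244 higher and 226 lower by at least 32-fold. Where a gene had 0 or few counts in 1 group, here and in the 8-fold sets below, this value depends on the prior count. WT, which took no part in the test, was nearer to ATRXΔRBR on the log2 scale for 73.1% of the genes higher in the libraries labelled ATRX KD and for 70.8% of the genes lower there. For the calls of at least 8-fold it was nearer to ATRXΔRBR in 60.2%.

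**Figure D1:**
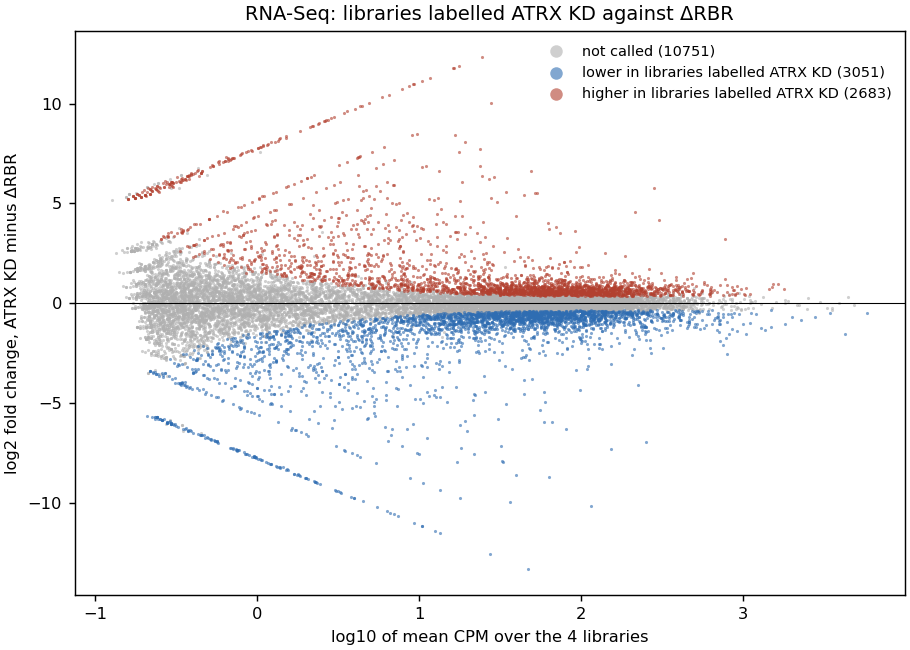
Log2 fold change of the libraries labelled ATRX KD against ATRXΔRBR (y axis) by the log10 of the mean CPM over the 4 libraries (x axis), with 1 point for each of the 16485 genes. The 2683 higher genes are red and the 3051 lower genes blue, and the slanted lines at the upper and lower left are genes with 0 or few counts in 1 group, whose fitted fold change depends on the prior count.

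The label of fibroblasts was checked against marker genes. Fibroblast markers summed to 23350 and 23570 CPM in ATRXΔRBR and to 19930 and 21420 CPM in the libraries labelled ATRX KD, although Thy1 was at 0 in all 4. Of the 15 tested, 4 were higher and 5 lower. Epithelial markers summed to 3.05 and 2.91 CPM in ATRXΔRBR and to 15.1 and 17.7 CPM in the libraries labelled ATRX KD, with Krt5 at 0 in all 4, and of the 3 tested 2 were higher and 1 was lower. Endothelial markers summed to 12.8 and 14.0 CPM against 25.3 and 26.3 CPM, with Cdh5 at 0 in all 4, and of the 4 tested 3 were higher and 1 was lower. In WT the epithelial markers summed to 5.5 and 5.6 CPM and the endothelial markers to 28.2 and 25.5 CPM. The part of such cells in the calls was not tested. Blood markers summed to between 11.5 and 17.7 CPM with Ptprc at 0, and skeletal muscle markers to at most 2.84 CPM with Myod1 at 0. Of the 8 neural markers tested, 1 was higher and 4 were lower, and of the 5 chondrocyte and osteoblast markers 1 was lower. No pluripotency marker reached the count minimum.

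Promoters of a few genes that the results return to are shown first. Npr3, Eif4g3 and Ucp2 were among the genes with the smallest p-values, Kcnq1ot1 is an imprinted noncoding RNA, and the start sites of Npr3 and Eif4g3 had H3K27me3 peaks in both ATRXΔRBR lists and in neither ATRX KD list. They are the 250 bases before the RefSeq start, 5′ to 3′ on the strand of the gene, from GRCm38.p6. Capitals mark the dinucleotide CG, the site of DNA methylation in mammals.
Npr3 (chr15:11907372-11907621, minus strand): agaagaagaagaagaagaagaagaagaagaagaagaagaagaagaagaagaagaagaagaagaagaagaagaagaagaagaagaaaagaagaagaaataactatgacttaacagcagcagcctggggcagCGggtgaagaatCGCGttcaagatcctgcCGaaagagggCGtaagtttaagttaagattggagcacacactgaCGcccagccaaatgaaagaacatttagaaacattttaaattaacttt
Eif4g3 (chr4:137993205-137993454, plus strand): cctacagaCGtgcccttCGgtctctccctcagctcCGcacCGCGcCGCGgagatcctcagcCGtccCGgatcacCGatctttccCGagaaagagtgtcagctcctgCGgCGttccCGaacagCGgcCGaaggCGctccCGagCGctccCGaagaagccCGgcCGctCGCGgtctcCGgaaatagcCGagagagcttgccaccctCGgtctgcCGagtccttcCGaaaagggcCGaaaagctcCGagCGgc
Kcnq1ot1 (chr7:143296548-143296797, minus strand): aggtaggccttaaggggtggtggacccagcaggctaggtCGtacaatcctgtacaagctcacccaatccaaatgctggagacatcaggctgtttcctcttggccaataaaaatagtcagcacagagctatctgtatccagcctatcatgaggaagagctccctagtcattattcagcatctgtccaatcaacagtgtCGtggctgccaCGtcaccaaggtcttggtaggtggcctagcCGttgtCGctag
Ucp2 (chr7:100493108-100493357, plus strand): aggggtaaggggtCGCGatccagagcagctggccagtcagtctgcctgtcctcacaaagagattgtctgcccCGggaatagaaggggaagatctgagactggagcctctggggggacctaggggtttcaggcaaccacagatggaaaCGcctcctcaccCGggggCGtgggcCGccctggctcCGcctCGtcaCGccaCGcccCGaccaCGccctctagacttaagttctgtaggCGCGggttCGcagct
The promoter of Npr3 holds 6 CG, a number that 50.4% of the 32851 RefSeq promoters reach. The promoter of Eif4g3 holds 32 CG, which 4.6% of promoters reach, and those of Kcnq1ot1 and Ucp2 hold 5 and 16 CG. Over the 10577 tested genes matched to a RefSeq promoter by symbol, the median was 16 CG. It was 17 CG for the genes higher in the libraries labelled ATRX KD and 15 CG for the lower ones. Among calls of at least 8-fold, the 248 higher genes had a median of 13 CG and the 281 lower genes one of 6 CG, with quartiles of 3 and 13 CG.

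Of the genes lower in the libraries labelled ATRX KD, many were not detected there at all. Cdkn1c, an imprinted inhibitor of cyclin-dependent kinases, had 182 and 314 counts in ATRXΔRBR, 271 and 192 counts in WT and 0 in both libraries labelled ATRX KD. It was at least 219-fold lower there, as computed against a floor of 3 counts over the group. Nlrp2, a cytoplasmic protein of the NLR family, had 258 and 366 counts in ATRXΔRBR and 0 in the other group, and was at least 275-fold lower. Zfp110, a zinc finger gene, had 260 and 316 counts against 0 and was at least 254-fold lower. Pax3, a paired-box factor of neural crest and muscle precursors, had 105 and 196 counts in ATRXΔRBR and 0 in both libraries labelled ATRX KD, at least 133-fold lower. In WT it had only 2 and 2 counts, so for Pax3 it was ATRXΔRBR that stood apart. Cacna2d1, a calcium channel subunit, Hunk, a protein kinase, and Hebp1, a haem-binding protein, were likewise at 0 counts and were at least 209-, 191- and 146-fold lower. Trim44, a tripartite motif gene, had 824 and 799 counts in ATRXΔRBR and 0 and 2 counts in the libraries labelled ATRX KD, a ratio of 1073 after scaling with a 95% exact counting interval of 297 to 8865.

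The genes with the smallest p-values among the lower ones were detected in both groups. Ucp2, an uncoupling protein of the inner mitochondrial membrane, was at 207 and 254 CPM in ATRXΔRBR and at 0.327 and 0.139 CPM in the libraries labelled ATRX KD. Its log2 fold change was -10.16 ± 0.29 (SE), with an adjusted p of 4.92e-07 (edgeR quasi-likelihood test, Benjamini-Hochberg). Where the counts in a group are this low, here and below, such an SE can be smaller than the counting error. Tgfbi, a secreted matrix protein induced by TGF-β, was at 128 and 134 CPM in ATRXΔRBR and at 2.18 CPM in each library labelled ATRX KD, a log2 fold change of -5.93 ± 0.17. The difference between the groups was far larger than that between replicates for both genes. Pde8a, a cyclic AMP phosphodiesterase, was at 67.7 and 61.6 CPM in ATRXΔRBR against 0.327 and 0.231 CPM. Ppbp, a platelet chemokine precursor, was at 115 CPM in each ATRXΔRBR library against 3.49 and 3.89 CPM, and Cdsn, an adhesion protein of the epidermis, at 102 and 116 CPM against 2.73 CPM in each. WT was below ATRXΔRBR and above the libraries labelled ATRX KD for all 5 genes, from 16.4 and 16.8 CPM for Cdsn up to 95.3 and 91.4 CPM for Tgfbi.

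Other genes were at 0 counts in ATRXΔRBR and expressed in the libraries labelled ATRX KD. Decr1, a mitochondrial enzyme of unsaturated fatty acid oxidation, had 0 counts in both ATRXΔRBR libraries, 497 and 930 counts in the libraries labelled ATRX KD and 241 and 231 counts in WT. It was at least 360-fold higher in the libraries labelled ATRX KD. Trim25, an E3 ligase of the RIG-I antiviral pathway, had 0 counts in ATRXΔRBR against 321 and 772, at least 276-fold higher. Sulf1, a sulfatase that edits heparan sulfate outside the cell, had 0 counts against 298 and 702, at least 252-fold higher, and Rftn1, a lipid raft protein, 0 counts against 188 and 455, at least 162-fold higher. WT had 6.12 and 8.35 CPM of Sulf1 and 1.07 and 0.835 CPM of Trim25, between the groups in both cases. Rragd, a GTPase of the mTORC1 pathway, Nrip3 and Ago4, an Argonaute protein, were also at 0 counts in ATRXΔRBR and were at least 135-, 122- and 72.9-fold higher. Echdc2 had 0 and 1 counts in ATRXΔRBR and 502 and 1208 counts in the libraries labelled ATRX KD, a ratio of 1294 with a counting interval of 232 to 51120. Epha3, an ephrin receptor, had 1 and 2 counts against 363 and 808, a ratio of 295 with an interval of 101 to 1434. These intervals cover counting error only.

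Among the higher genes with the smallest p-values, Npr3 reached the highest level. This clearance receptor for natriuretic peptides was at 10.3 and 9.89 CPM in ATRXΔRBR, 38.6 and 42.3 CPM in WT and 555 and 549 CPM in the libraries labelled ATRX KD. Its log2 fold change was 5.75 ± 0.15 (SE), with an adjusted p of 4.92e-07 (edgeR quasi-likelihood test, Benjamini-Hochberg). It lies on chromosome 15, where most called genes were lower. Eif4g3, a translation initiation factor, was at 1.05 and 0.872 CPM in ATRXΔRBR and at 95.8 and 98.2 CPM in the libraries labelled ATRX KD, a log2 fold change of 6.64 ± 0.20. Cgnl1, a protein of cell junctions, was at 2.31 and 2.11 CPM against 98.0 and 105 CPM. Adam22, a metalloprotease-like membrane protein, was at 2.10 and 1.89 CPM against 84.4 and 88.6 CPM, and Fam198b at 2.42 and 2.04 CPM against 104 and 105 CPM. WT was between the groups for all 5, at 13.5 to 42.3 CPM. Thbs1, the matrix glycoprotein thrombospondin 1, was at 162 and 130.3 CPM in ATRXΔRBR and at 1380 and 1420 CPM in the libraries labelled ATRX KD, a log2 fold change of 3.23 ± 0.15.

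**Figure D2:**
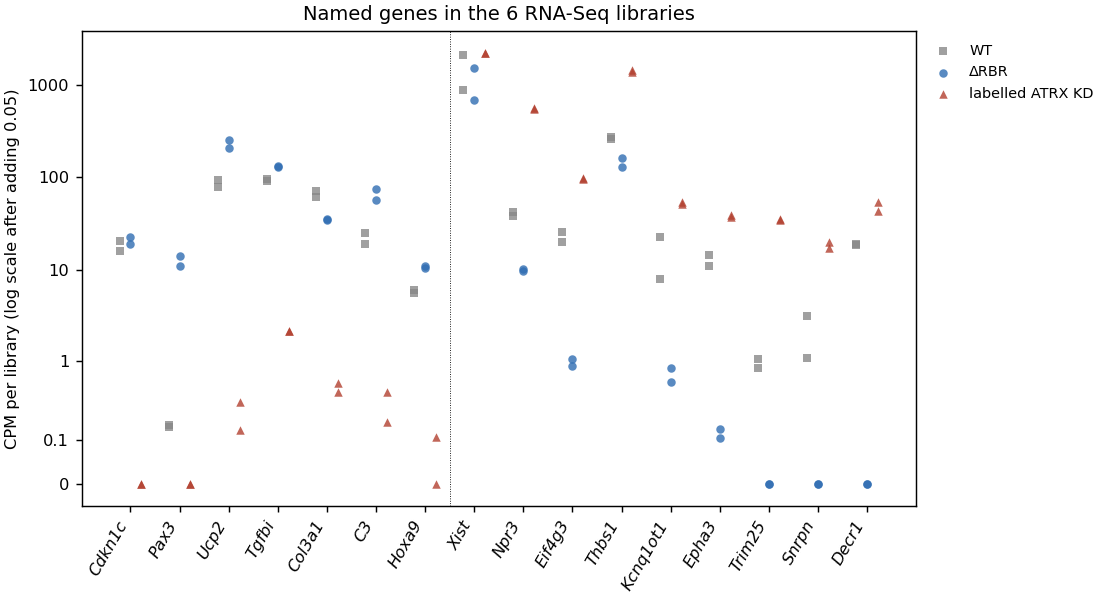
CPM of 16 genes in each of the 6 libraries, on a log scale after adding 0.05, with 2 WT libraries (grey squares), 2 ATRXΔRBR libraries (blue circles) and 2 libraries labelled ATRX KD (red triangles). Left of the dotted line are genes lower and right of it genes higher in the libraries labelled ATRX KD, and symbols at 0 mark genes with no count, such as Cdkn1c on the left and Decr1 on the right.

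Of 22 genes of cholesterol synthesis tested, 18 were lower and 0 higher in the libraries labelled ATRX KD, with a median log2 fold change of -1.06, against -0.02 for all genes. Sqle, the squalene epoxidase of the pathway, was at 1208 and 1223 CPM in ATRXΔRBR and at 354 and 371 CPM in the libraries labelled ATRX KD, a log2 fold change of -1.77 ± 0.11. Hmgcs1, the synthase that makes HMG-CoA, was at 2077 and 1831 CPM against 805 and 760.3 CPM, and Fdps, which makes farnesyl diphosphate, at 319 and 415 CPM against 128 CPM in each. WT was near ATRXΔRBR for Sqle, at 1095 and 1107 CPM, and for Hmgcs1, at 1714 and 1894 CPM. Of the 21 genes of fatty acid handling, 7 were higher and 7 lower, or 4 and 4 without ATRX KD replicate 2, and the abundant desaturases were lower. Scd2 was at 6452 and 6300 CPM in ATRXΔRBR and at 2222 and 2204 CPM in the libraries labelled ATRX KD, a log2 fold change of -1.55 ± 0.10, and Scd1 fell by 1.36 ± 0.12. Without a library labelled ATRX KD, 15 or 13 cholesterol genes were lower and 0 higher.

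The amino acid and endoplasmic reticulum stress response had 16 of 25 tested genes lower and 3 higher, with a median of -1.26. Asns, the asparagine synthetase induced by amino acid shortage, was at 442 and 472 CPM in ATRXΔRBR, 214 and 194 CPM in WT and 84.4 and 80.4 CPM in the libraries labelled ATRX KD, and fell by 2.50 ± 0.13 on the log2 scale. Chac1, a glutathione-degrading enzyme of the same response, fell by 2.52 ± 0.17, from 82.5 and 105 CPM to 17.8 and 15.7 CPM. Calr and Hsp90b1, which encode chaperones of the endoplasmic reticulum, were among the 3 higher genes. Calr was at 613 and 673 CPM against 1185 and 1182 CPM, and Hsp90b1 at 1423 and 1294 CPM against 2214 and 2238 CPM. Of the antioxidant and glutathione genes, 8 of 24 were lower and 2 higher, and 5 were lower without ATRX KD replicate 1. Gstm1, a glutathione transferase, fell by 1.91 ± 0.15 and Nqo1, a quinone reductase, by 1.18 ± 0.13, while Hmox1, the inducible haem oxygenase, rose by 0.77 ± 0.15.

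Of 79 cytosolic ribosomal protein genes tested, 48 were lower and 1 was higher. Their median was -0.92, or -1.11 without ATRXΔRBR replicate 1 and -0.64 without ATRXΔRBR replicate 2. Rpl8 was at 1450 and 2177 CPM in ATRXΔRBR and at 732 and 814 CPM in the libraries labelled ATRX KD, and Rpl4 at 1326 and 1502 CPM against 962 and 1027 CPM. Ribosomal protein genes share sequence with many processed copies, so the counts of single members are uncertain. Of 77 nuclear-encoded oxidative phosphorylation genes, 31 were lower and 2 higher. Their median was -0.39, or -0.59 without ATRXΔRBR replicate 1 and -0.17 without ATRXΔRBR replicate 2. The 2 higher were Atp5a1, which rose by 0.42 ± 0.13, and Ndufb8, which rose by 0.54 ± 0.15. Without ATRX KD replicate 1 or 2, the calls of Rpl4 (-0.49 or -0.56 on the log2 scale), Atp5a1 (0.42 or 0.44) and Ndufb8 (0.56 or 0.55) were lost. Without ATRXΔRBR replicate 1, 57 of the oxidative phosphorylation genes were lower and 3 higher, without ATRXΔRBR replicate 2 it was 30 and 18, and without ATRX KD replicate 1 it was 17 and 0. Fold change moved with transcript length over genes at 10 CPM or more in both groups. With these genes split by the length of the longest annotated transcript into 4 equal classes, the shortest class held 44 of the 51 ribosomal protein genes and 60 of the 70 oxidative phosphorylation genes at this level, and the part of length in their change was not tested. The median was -0.24 in the class of the shortest transcripts, -0.07 and 0.04 in the middle classes and 0.25 in the class of the longest. Of the shortest class 33.2% of genes were lower and 6.87% higher, and of the longest 9.32% were lower and 33.4% higher. With this trend removed, 40 ribosomal protein genes were lower and 3 higher, with a median of -0.61, and 16 oxidative phosphorylation genes were lower and 7 higher, with a median of -0.12. Of 21 glycolysis genes, 4 were higher and 3 lower.

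Of 28 mitosis genes, 14 were higher and 1 was lower, with a median of 0.40. Top2a, the topoisomerase that untangles sister chromatids, was at 865 and 678 CPM in ATRXΔRBR and at 1310 and 1305 CPM in the libraries labelled ATRX KD, a log2 fold change of 0.73 ± 0.14. Mki67, the proliferation antigen Ki-67, was at 424 and 214 CPM against 586 and 608 CPM, and its ATRXΔRBR replicates were far apart. The 1 lower gene was Ccnb1, cyclin B1, which fell by 0.39 ± 0.13. Without a library labelled ATRX KD, 5 or 4 mitosis genes were higher and 0 lower. Of 34 DNA replication genes, 15 were lower and 2 higher, with a median of -0.34, and without a library labelled ATRX KD only 3 or 1 were lower and 0 higher. Rrm2, a ribonucleotide reductase subunit, was among the higher genes and rose by 0.52 ± 0.12. The calls of Ccnb1 (-0.40 or -0.36) and Rrm2 (0.52 or 0.54) were lost without ATRX KD replicate 1 or 2, and DESeq2 did not call Mki67 (0.89) or Ccnb1 (-0.37). The 28 p53 targets and Ink4 locus genes had 14 members lower and 2 higher, with a median of -0.40. Gadd45a, a growth arrest gene, was at 64.5 and 79.5 CPM against 15.5 and 13.8 CPM, and Eda2r, a receptor of the TNF family, at 72.3 and 48.8 CPM against 7.53 and 6.29 CPM. Cdkn2a, which encodes the senescence proteins p16 and p19, was at 352 and 589 CPM in ATRXΔRBR, 658 and 375 CPM in WT and 263 and 288 CPM in the libraries labelled ATRX KD, and it was not called without ATRX KD replicate 1 (-0.74). Perp, an apoptosis effector and desmosome protein, went the other way, from 56.3 and 63.0 CPM to 329.9 and 299 CPM, and WT, at 413 and 369 CPM, was on the side of the libraries labelled ATRX KD.

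Immune genes split by kind. Of 27 chemokine and cytokine genes, 14 were lower and 3 higher, with a median of -1.07, or -0.40 over those with at least 10 counts in every library. Il1rl1, the receptor of interleukin 33, was at 877 and 735 CPM in ATRXΔRBR and at 346 CPM in each library labelled ATRX KD. Of 11 complement genes, 5 were lower and 1 was higher. C3, the central component of the cascade, was at 74.5 and 57.6 CPM against 0.436 and 0.185 CPM, with a log2 fold change of -7.95 ± 0.32, while Masp1, a protease of the lectin pathway, rose from 47.5 and 41.3 CPM to 114 and 117 CPM. Of 32 interferon-stimulated genes, 14 were higher and 6 lower, with a median of 0.47, and of 14 antigen presentation genes 7 were higher and 1 was lower, with a median of 0.83. Parp14, an ADP-ribosyltransferase, was at 0.840 and 1.02 CPM against 16.4 and 16.3 CPM, and Lgals3bp, a secreted glycoprotein, at 30.2 and 38.0 CPM against 88.9 and 96.0 CPM. Nlrc5, the transactivator of MHC class I genes, rose by 2.15 ± 0.31. B2m, the invariant chain of MHC class I, was at 270.3 and 299 CPM in ATRXΔRBR and at 277 and 258 CPM in the libraries labelled ATRX KD and was not called. Among the 6 lower interferon-stimulated genes were Ifi27, at 53.7 and 66.0 CPM against 35.4 and 41.7 CPM, and Irf7, at 2.10 and 1.89 CPM against 0 and 0.0926 CPM. Without ATRX KD replicate 1 or 2, 9 or 10 interferon-stimulated genes were higher and 3 or 2 lower, and Ifi27 (-0.56 or -0.76) was no longer called.

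**Figure D3:**
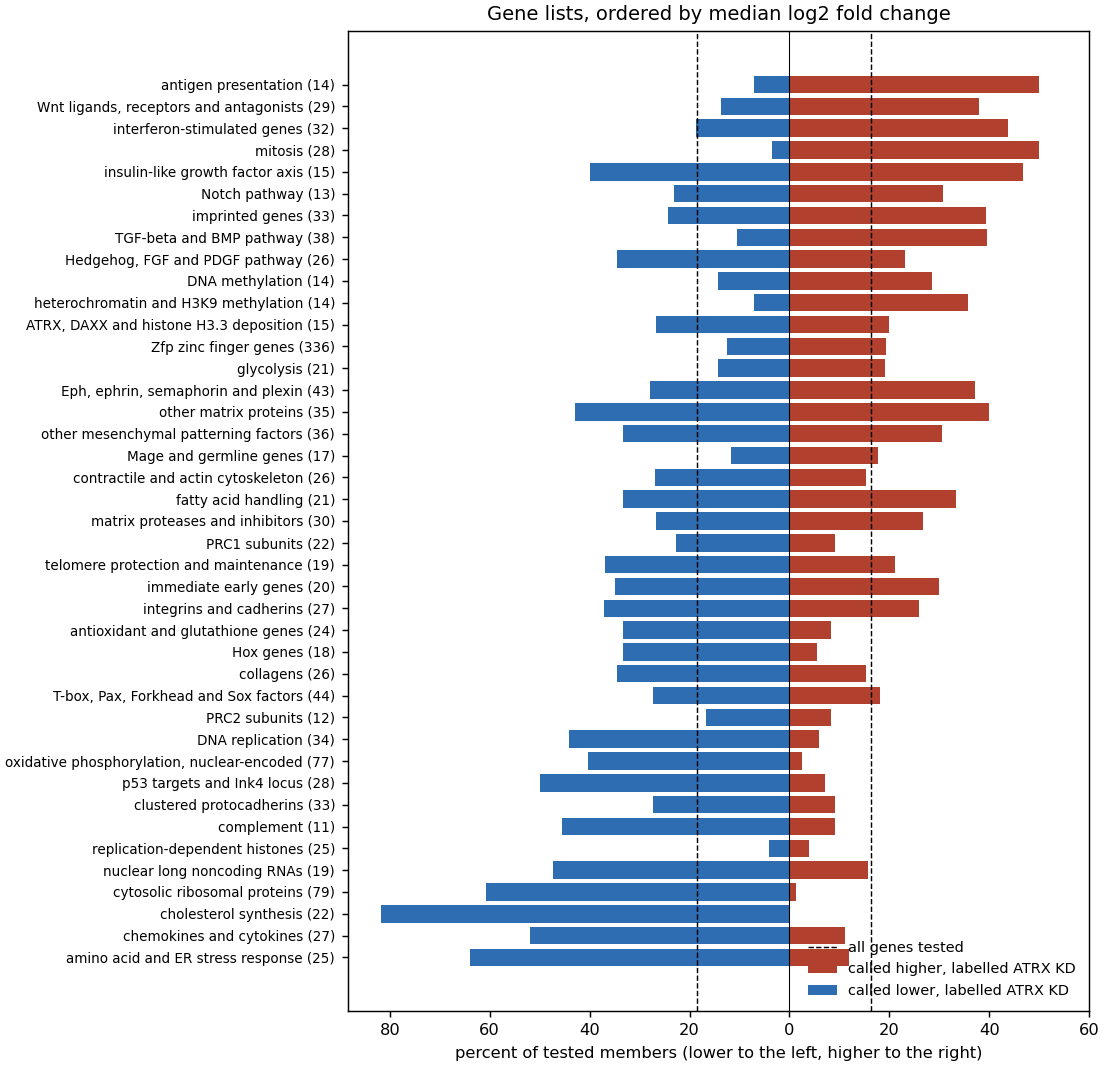
Percent of the tested members of each gene list called lower (blue, to the left) or higher (red, to the right) in the libraries labelled ATRX KD, for lists with at least 10 members tested, in the order of their median log2 fold change, with the number tested in brackets. The dashed lines mark the 18.5% lower and 16.3% higher of all genes, and the lists of cholesterol synthesis, ribosomal proteins and the amino acid response reach farthest to the left.

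Ligands of several growth factor pathways differed. Of 38 genes of the TGF-β and BMP pathway, 15 were higher and 4 lower, with a median of 0.24, or 0.05 with the trend of fold change on transcript length removed, and 8 were higher and 4 lower without either library labelled ATRX KD, while 20 were higher and 7 lower without ATRXΔRBR replicate 1. Tgfb2, a TGF-β ligand, was at 29.0 and 26.8 CPM in ATRXΔRBR and at 94.9 and 86.6 CPM in the libraries labelled ATRX KD, and Fstl1, a secreted BMP antagonist, rose by 0.91 ± 0.11. Fst, the activin antagonist follistatin, fell by 2.98 ± 0.32 and Id4, a BMP target, by 2.14 ± 0.20. Of 29 Wnt ligands, receptors and antagonists, 11 were higher and 4 lower. Their median was 0.51, but 0.08 without ATRX KD replicate 2, 0.32 without ATRXΔRBR replicate 1 and 0.26 with the length trend removed. Wnt10b was at 146 and 164 CPM against 50.2 and 48.3 CPM, and Wnt4 fell by 2.90 ± 0.30. Dkk3, a member of the Dickkopf family of secreted Wnt modulators, was at 0.210 and 0.218 CPM against 14.5 and 12.8 CPM, a log2 fold change of 5.90 ± 0.35, and the ligand Wnt5b rose by 3.70 ± 0.50. Of 15 genes of the insulin-like growth factor axis, 7 were higher and 6 lower. Igf2r, the imprinted receptor that clears IGF2, was at 110.5 and 71.6 CPM against 242 and 259 CPM, and Igfbp6, which binds IGF2, fell by 5.51 ± 0.47. Of 26 Hedgehog, FGF and PDGF genes, 9 were lower and 6 higher, with Fgfr1, an FGF receptor, at 315 and 333 CPM against 142 and 145 CPM, near the 137 and 130.4 CPM of WT. Without ATRX KD replicate 2, 5 of them were lower and 2 higher. Of 43 Eph, ephrin, semaphorin and plexin genes, 16 were higher and 12 lower.

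The matrix genes were called often and in both directions, with 14 of 35 higher and 15 lower, and with 4 of 26 collagens higher and 9 lower. Col1a1, the most abundant collagen chain of fibroblasts along with Col1a2, was at 3508 and 3612 CPM in ATRXΔRBR and at 2850 and 3179 CPM in the libraries labelled ATRX KD and was not called, and Col1a2 fell by 0.51 ± 0.10, a call that was lost without ATRX KD replicate 1 (-0.46) or 2 (-0.53). Col3a1, the chain of fibrillar collagen III, was at 35.9 and 34.3 CPM against 0.436 and 0.555 CPM, a log2 fold change of -6.09 ± 0.24. Col2a1, the collagen of cartilage, had 206 and 287 counts in ATRXΔRBR and 0 and 1 counts in the libraries labelled ATRX KD, a ratio of 652 with a counting interval of 116 to 25790. In WT it was at 2.06 and 1.92 CPM. Dcn, the small proteoglycan decorin, had 30 and 53 counts against 0, at least 36.6-fold lower. In the other direction, Nid2, a basement membrane protein, rose by 5.23 ± 0.40 and Adamts2, which trims procollagen, from 2.52 and 2.76 CPM to 30.8 and 33.3 CPM. Fn1, fibronectin, was at 4687 and 3009 CPM against 3773 and 4202 CPM and was not called. Of 30 matrix proteases and inhibitors, 8 were higher and 8 lower, among them Serpinf1, an antiangiogenic serpin, at 103 and 129 CPM against 1.85 and 1.94 CPM. Of 26 contractile and actin genes, 7 were lower and 4 higher, and without a library labelled ATRX KD 5 or 3 were lower. Acta2, the smooth muscle actin of myofibroblasts, was at 41.8 and 50.6 CPM against 3.71 and 3.80 CPM, with 58.0 and 49.1 CPM in WT. Mylk, the myosin light chain kinase, fell by 2.61 ± 0.16 while Actn1, an actinin, rose by 0.90 ± 0.12. Of 27 integrins and cadherins, 10 were lower and 7 higher.

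Of 18 Hox genes tested, 6 were lower and 1 was higher. Their median was -0.24, or -0.07 without ATRXΔRBR replicate 2 and -0.13 without ATRX KD replicate 1. Hoxa9 had 100 and 151 counts in ATRXΔRBR and 1 and 0 counts in the libraries labelled ATRX KD, a ratio of 332 with a counting interval of 59.0 to 13160, and Hoxa10 had 45 and 101 counts against 0, at least 64.3-fold lower. Hoxb3 was higher by 0.57 ± 0.17, a call that was lost without ATRX KD replicate 1 (0.73) or 2 (0.40). Without a library labelled ATRX KD, 2 Hox genes were lower and 0 higher, and without ATRXΔRBR replicate 2 it was 6 and 6. Of 44 T-box, Pax, Forkhead and Sox factors, 12 were lower and 8 higher, and without a library labelled ATRX KD 9 or 6 were lower and 2 higher. Sox2, a factor of stem and neural progenitor cells, was at 17.9 and 18.5 CPM in ATRXΔRBR, 48.7 and 36.9 CPM in WT and 0.982 and 0.509 CPM in the libraries labelled ATRX KD. Foxc2, a mesenchymal forkhead factor, rose by 1.77 ± 0.22 and Foxp1 by 1.19 ± 0.13. Of 36 other patterning factors, 12 were lower and 11 higher, and without ATRX KD replicate 2 it was 10 and 7. Irx1, a homeobox factor, had 69 and 119 counts against 0, at least 82.8-fold lower, and Shox2, a homeobox factor of the limb, fell by 4.72 ± 0.25. Gli2, the transcription factor at the end of the Hedgehog pathway, had 1 and 0 counts in ATRXΔRBR and 64 and 212 counts in the libraries labelled ATRX KD, a ratio of 209 with a counting interval of 37.2 to 8276. Vim, the intermediate filament protein of mesenchymal cells, was at 3417 and 4259 CPM against 3164 and 3424 CPM and was not called. Of 33 clustered protocadherins, 9 were lower and 3 higher, but some members of a cluster share exons, and the counts of these cannot be separated. All members together summed to 310 and 284 CPM in ATRXΔRBR and to 461 and 466 CPM in the libraries labelled ATRX KD.

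Of 33 imprinted genes tested, 13 were higher and 8 lower, and 5 were lower without either library labelled ATRX KD. Their median was 0.25, or 0.05 without ATRX KD replicate 2 and 0.16 without ATRXΔRBR replicate 2, and on the TPM scale with at least 5 TPM 8 of 18 were higher and 0 lower. In the Kcnq1 domain 1 transcript was higher and another lower, and the counts do not separate the alleles. Kcnq1ot1, a noncoding RNA known to silence the domain on the paternal allele, was at 0.840 and 0.582 CPM in ATRXΔRBR, 22.7 and 8.10 CPM in WT and 53.8 and 52.2 CPM in the libraries labelled ATRX KD, and its log2 fold change was 6.22 ± 0.23. Cdkn1c of the same domain was at 0, as given above. Snrpn, the paternally expressed gene of the Prader-Willi region, had 0 counts in ATRXΔRBR and 184 and 371 counts in the libraries labelled ATRX KD, at least 140-fold higher, and it shares exons with Snurf, so that their reads cannot be separated. Dlk1, a paternally expressed growth regulator, was at 0.105 and 0.0727 CPM in ATRXΔRBR, 2.94 and 3.15 CPM in the libraries labelled ATRX KD and 44.1 and 28.6 CPM in WT, above both. Of 19 long noncoding RNAs, 9 were lower and 3 higher. Their median was -0.73, or -0.49 without ATRXΔRBR replicate 1, -0.40 with the length trend removed and -0.31 without chromosomes 15 and 19. Malat1, an abundant RNA of nuclear speckles, fell by 0.85 ± 0.13, and the snoRNA host genes Gas5 and Snhg1 fell by 1.83 ± 0.13 and 2.00 ± 0.13. Xist, the RNA that coats the inactive X chromosome and an RNA partner of ATRX, was at 1509 and 685 CPM in ATRXΔRBR, 864 and 2098 CPM in WT and 2194 and 2169 CPM in the libraries labelled ATRX KD. It was higher by 0.96 ± 0.29, with an adjusted p of 0.0324 (edgeR quasi-likelihood test, Benjamini-Hochberg), but the replicates were far apart in ATRXΔRBR and in WT, and 1 WT library was level with the libraries labelled ATRX KD. It was not called by DESeq2 (0.98) or with the trend of fold change on transcript length removed (0.33).

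Of 12 PRC2 subunit genes, 1 was higher and 2 were lower, where 34.8% of all genes were called. Their median was -0.26, or -0.15 without ATRXΔRBR replicate 1 and -0.08 with effective-length offsets. The catalytic subunit Ezh2 had 1680 and 2265 counts in ATRXΔRBR and 1693 and 3914 counts in the libraries labelled ATRX KD. This was a mean of 170.6 CPM against 183 CPM, with a log2 fold change of 0.07 ± 0.12, and it was not called. The core subunits Suz12 and Eed had log2 fold changes of -0.28 ± 0.15 and -0.29 ± 0.14 and were not called either. The accessory subunits Phf1 and Aebp2 fell by 0.67 ± 0.17 and 0.55 ± 0.13, and Phf19 rose by 0.43 ± 0.13. Of 22 PRC1 genes, 5 were lower and 2 higher. In the fit without chromosomes 15 and 19, 16 of them were tested, with 0 lower and 2 higher and a median of 0.03. Cbx7, a reader of H3K27me3, was at 25.6 and 23.6 CPM against 11.6 and 13.1 CPM and Cbx6 at 327 and 378 CPM against 182 and 202 CPM, and both lie on chromosome 15. Rybp, a PRC1 subunit, rose by 1.15 ± 0.31. Of 15 genes of ATRX, DAXX and H3.3 deposition, 4 were lower and 3 higher. Daxx had a log2 fold change of -0.18 ± 0.16 and was not called, nor was H3f3b, a gene for H3.3, at 0.08 ± 0.12, while Hira, the H3.3 chaperone of active genes, fell by 0.53 ± 0.13 and Chd4, a remodeller of the NuRD complex, rose by 0.57 ± 0.13. Of 14 DNA methylation genes, 4 were higher and 2 lower. In the fit without chromosomes 15 and 19, 12 of them were tested, with 4 higher and 0 lower. Dnmt3a, a de novo methyltransferase, was at 29.2 and 23.8 CPM against 60.9 and 70.3 CPM, and Mbd1, a methyl-CpG reader, rose by 0.85 ± 0.13, while Hells, a remodeller that DNA methylation needs, on chromosome 19, fell by 0.68 ± 0.15. Of 14 heterochromatin genes, 5 were higher and 1 was lower, with Suv39h2, an H3K9 methyltransferase, higher by 0.59 ± 0.15. The calls of Phf1 (-0.58 or -0.76), Aebp2 (-0.50 or -0.60), Phf19 (0.47 or 0.40), Hira (-0.51 or -0.53), Chd4 (0.62 or 0.54), Hells (-0.69 or -0.64) and Suv39h2 (0.49 or 0.71) were lost without ATRX KD replicate 1 or 2, and that of Rybp (0.93) without replicate 2. Without a library labelled ATRX KD, 0 to 3 members of each were called in each direction, while without an ATRXΔRBR library it was 2 to 8. Of 19 telomere genes, 7 were lower and 4 higher, and 4 and 2 without either library labelled ATRX KD. Tert, the telomerase catalytic subunit, had 2 and 2 counts in ATRXΔRBR and 35 and 118 counts in the libraries labelled ATRX KD, and Stn1, which protects chromosome ends, was at 72.9 and 77.5 CPM against 17.4 and 19.4 CPM.

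Calls were not spread evenly over the chromosomes. On chromosome 15, 368 of 665 genes were lower and 27 higher, so that 59.4% were called, with a median of -0.74. On chromosome 19, 221 of 505 genes were lower and 26 higher, with a median of -0.46. The shift ran along both chromosomes, with a median between -0.59 and -0.83 in each of 5 segments of chromosome 15 and between -0.21 and -0.62 in each of 5 segments of chromosome 19, over genes at 10 CPM or more in both groups. Chromosomes 2, 4, 9, 11, 12, 14 and 18 had more genes higher than lower, with medians over all their genes between 0.19 and 0.27. On chromosome 2, which carries Thbs1 and B2m, 345 of 1237 genes were higher and 111 lower. On the X chromosome, which carries Atrx and Xist, 55 of 520 genes were higher and 124 lower, with a median of -0.16. Sqle, Cbx6 and Wnt10b are some of the named genes on chromosome 15, and Scd2, Acta2, Malat1 and Stn1 some of those on chromosome 19. The part of the chromosome in the change of these and the other named genes there was not tested. Without chromosomes 15 and 19 in the fit, 5073 of 15315 genes were called, with 2477 higher and 2596 lower, and of the cholesterol genes left 16 were lower.

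**Figure D4:**
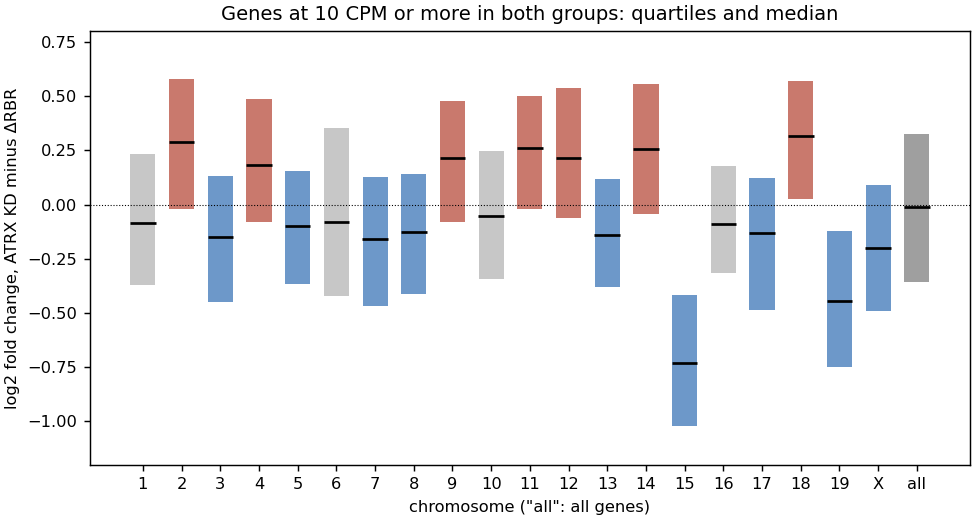
Median (black line) and quartiles (bar) of the log2 fold change of the libraries labelled ATRX KD against ATRXΔRBR for genes at 10 CPM or more in both groups, by chromosome, with all genes in dark grey at the right. Bars are red where the median is above 0.1, blue where it is below -0.1 and light grey between, and chromosomes 15 and 19 lie below the others.

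H3K27me3 at the start sites was measured apart from the RNA and was set beside the calls. The ATRXΔRBR lists held 38651 and 33105 H3K27me3 peaks and those of ATRX KD cells 7241 and 6336, and the lists do not carry the read depth of each library, so shares are given per genotype and compared within a genotype. In ATRXΔRBR, 14.6% ± 0.844 (SD, n = 2) of the genes higher in the libraries labelled ATRX KD had an H3K27me3 peak within 2 kb of their start, against 7.03% ± 0.232 of the lower genes and 6.94% ± 0.579 of the genes not called. In the ATRX KD lists the shares were 4.66% ± 0.264 of the higher, 4.51% ± 0.209 of the lower and 2.22% ± 0.145 of the genes not called. In WT they were 11.4%, 6.83% and 5.51%. Only genes above the count minimum enter these shares. A gene silent in ATRXΔRBR enters only through counts in the libraries labelled ATRX KD, and the reverse. Among calls of at least 8-fold, the ATRXΔRBR lists covered 29.8% of the higher genes and 15.04% of the lower ones, the ATRX KD lists 13.4% and 12.5%, and the WT lists 34.2% and 18.4%. The difference between higher and lower genes in ATRXΔRBR was thus larger than the difference between its replicate lists, while in the ATRX KD lists it was not. With peaks at q of 0.01 or less it was larger there too, with 2.05% and 2.16% of the higher against 1.77% and 1.94% of the lower genes. With 2 lists per genotype, an exact permutation test cannot go below a two-sided p of 0.333, and none was run.

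**Figure D5:**
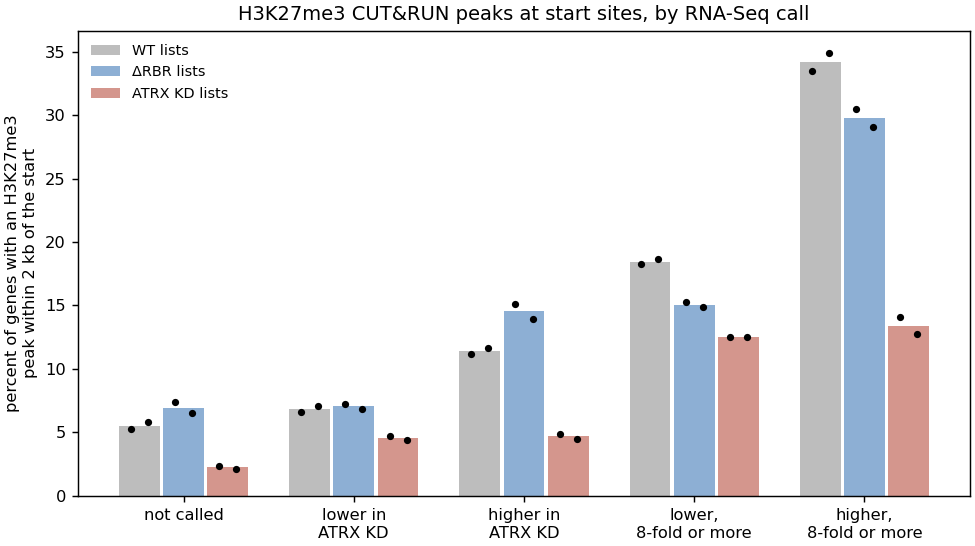
Percent of genes with an H3K27me3 peak within 2 kb of their start site, by the RNA-Seq call of the gene (x axis), in the peak lists of WT (grey), ATRXΔRBR (blue) and ATRX KD cells (red). Bars are means of 2 lists and dots the single lists, and the share in ATRXΔRBR is 14.6% for the higher genes and 7.03% for the lower ones.

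Genes with H3K27me3 in both ATRXΔRBR lists and in neither ATRX KD list were set beside all genes tested, of which 16.3% were higher and 18.5% lower. Of 4356 such genes in the annotation, 796 passed the count minimum. Of these, 256 (32.2%) were higher and 96 (12.1%) lower, with a median of 0.33. A gene silent in ATRXΔRBR passes the minimum only through counts in the libraries labelled ATRX KD. The share of higher genes is thus not independent of the minimum. Examples in this state were Npr3, Eif4g3, Ago4, Rragd, Nrip3, Decr1 and Wnt5b, which were higher, and Hoxa9, Hoxa10, Id4 and Zfp870, which were lower. Of these examples, Npr3, Eif4g3, Ago4, Nrip3 and Hoxa10 also had EZH2 in both ATRXΔRBR lists and in neither ATRX KD list. For the mirror state, with H3K27me3 in both ATRX KD lists and in neither ATRXΔRBR list, 118 genes were tested. Of these, 31 (26.3%) were higher and 37 (31.4%) lower, with a median of -0.10. Of 240 genes with H3K27me3 in all 4 lists, 60 were higher and 61 lower, and among them Hunk and Osr2, a zinc finger factor of limb and palate, were at 0 counts in the libraries labelled ATRX KD. Pax3 and Irx1 had H3K27me3 in both WT lists and in neither list of either other genotype, and their counts were 0 in the libraries labelled ATRX KD. Cdkn1c, Trim25, Snrpn, Kcnq1ot1, C3 and Col3a1 had no H3K27me3 peak at the start in any list of the 3 genotypes. For EZH2, the 2299 genes with a peak in both ATRXΔRBR lists and in neither ATRX KD list had 393 members (17.1%) higher and 478 (20.8%) lower, near the 16.3% and 18.5% of all genes tested. The ATRX KD lists have fewer peaks of both kinds, and whether a peak is absent or below detection cannot be told apart.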

How the data were processed

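RNA-Seq and CUT&RUN were made from female MEFs of 3 genotypes. For RNA-Seq, the authors aligned reads to mm10 with STAR and computed the deposited expected counts per gene with RSEM, which are not scaled between libraries. The deposited TPM values were computed with RSEM by the authors from these counts, gene lengths and library totals. RSEM gene lengths were used only for Atrx and as offsets. For CUT&RUN, the authors used Bowtie2 for mapping and MACS2 for broad peaks, per library. The fold enrichment that the deposited peak lists give is a ratio to the local background and was not compared. The deposited −log10 q of a peak was used only to restrict the lists to q-values of 0.01 or less.

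Expected counts were rounded to whole numbers, and a gene was kept when they summed to more than 10 over the 4 libraries. Libraries were scaled with TMM and compared with edgeR's quasi-likelihood test (R 4.3.3, edgeR 4.0.16), two-sided, and a gene was called at a Benjamini-Hochberg adjusted p under 0.05 over all genes tested. Fold changes are on the log2 scale, ATRX KD minus ATRXΔRBR, and CPM values were scaled over all 6 libraries. The test was checked on simulated data. DESeq2 1.42.0 and limma 3.58.1 served as alternatives. Tables and figures were made with Python 3.11.15 and matplotlib 3.10.9. Peaks were counted at a start when they overlapped 2 kb on either side in GENCODE release M21, and promoter sequences are those of RefSeq. The genes compared and the gene lists were chosen with earlier results of these data known, so lists are described by counts and medians with no test.

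Genes were named by a rule. It took Atrx, the 15 genes with the largest fold change in each direction among called genes with at least 5 CPM in the higher group and groups that do not overlap, the 5 with the smallest p in each direction, genes at 0 in 1 group with at least 100 counts in each library of the other, and in each list up to 2 called members by fold change in each direction and 2 by level. Some genes that the rule names are not reported here. Other list members are named for their role. Removal of the length trend and the fit without chromosomes 15 and 19 were chosen after seeing the data. Replicate numbers are shared between the groups, but no label says that a number marks a shared day or batch. ATRX CUT&RUN has no ATRX KD library and was not used here, nor was FPKM.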

Additional observations from a re-analysis of the deposited data

How the results depend on the processing

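The 5734 genes called by edgeR's quasi-likelihood test became 3649 with limma on log2(TPM + 1) at a minimum of 5 TPM, 3631 on log2(TPM + 0.1), 2612 when a fold of at least 2 was also required, and 3088 to 8734 when 1 library was left out, with the lowest count without ATRX KD replicate 2 and the highest without ATRXΔRBR replicate 1. Of these, the 2683 higher genes became 1108 with the fold and 1364 to 4255 without 1 library. The 3051 lower genes became 1225 and 1220 on the 2 TPM scales, 1747 on log2(TPM + 1) with no minimum, 1504 with the fold and 1724 to 4479 without 1 library. The called members of the gene lists, 699 in all, became 449 on either TPM scale, 374 with the fold and 457 to 950 without 1 library. DESeq2 called 4731 genes, and other scalings, filters, length offsets and chromosomes left out kept the count within 1.5 times. The replicate block gave 6775 calls, 3223 higher and 3552 lower. Deviations of same-numbered libraries correlated at 0.197 over 9582 genes, and with only 2 pairs and no label on the point this does not settle whether the numbers pair the libraries. Atrx, higher by 0.47 on the log2 scale without a call, was called at 0.48 by DESeq2, with RLE factors and with at least 10 counts in each library, at 0.47 with upper-quartile factors, 0.50 with library totals, 0.52 with no filter, 0.46 with the replicate block, 1.31 with effective-length offsets and 1.47 or 1.48 on the TPM scales, and ranged from 0.26 to 0.66 without 1 library. With peaks within 1 kb or at q of at most 0.01, the share of higher genes with an H3K27me3 peak went from 14.6% to 11.5% or 11.04% in ATRXΔRBR and from 4.66% to 3.26% or 2.11% in the KD libraries, and that of lower genes from 7.03% to 5.32% or 5.40% and from 4.51% to 3.15% or 1.86%. The sign of 7 uncalled genes turned. On the TPM scales B2m was at 0.0579 or 0.058, Daxx at 0.0586 or 0.0601, Suz12 at 0.29, Vim at 0.12 and Fn1 at -0.0318. With effective-length offsets Ezh2 was at -0.11, Fn1 at -0.23, H3f3b at -0.10 and Suz12 at 0.0873, and with the length trend removed B2m was at 0.31 and Fn1 at -0.34. Fn1 ranged from -0.26 (without ATRXΔRBR replicate 2) to 0.37 (without ATRXΔRBR replicate 1) and was at -0.0071 without chromosomes 15 and 19. Over the 129 named genes, 1898 of 2005 recomputed values kept their direction and their side of the threshold, and 20 genes lost a call at least once. The cause of these changes was not tested. Genes near the floor of 3 counts are limited by depth.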

Other observations

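Some gene groups were not part of the account above. Of 336 Zfp zinc finger genes tested, 65 were higher and 42 lower in the libraries labelled ATRX KD, with a median log2 fold change of 0.03, where 16.3% of all genes were higher and 18.5% lower. Without ATRXΔRBR replicate 1 it was 116 and 54, and without ATRXΔRBR replicate 2 it was 73 and 77. Single members differed by more. Zfp791 had 0 counts in both ATRXΔRBR libraries and 56 and 116 counts in the libraries labelled ATRX KD, at least 43.4-fold higher, and Zfp612 had 0 counts against 46 and 120, at least 41.9-fold higher. Zfp870 had 27 and 54 counts in ATRXΔRBR and 0 in both libraries labelled ATRX KD.

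Of 20 immediate early genes, 6 were higher and 7 lower, and without ATRX KD replicate 2 only 2 were higher and 6 lower. Egr1, which serum growth factors induce, was at 124 and 136 CPM in ATRXΔRBR, 278 and 270 CPM in the libraries labelled ATRX KD and 285 and 231 CPM in WT. Klf2, a Krüppel-like factor, was at 2.73 and 5.45 CPM against 23.7 and 26.5 CPM. Of 13 genes of the Notch pathway, 4 were higher and 3 lower. The receptor Notch3 was at 11.7 and 10.98 CPM against 1.64 and 2.96 CPM. Of 17 Mage and germline genes, 3 were higher and 2 lower. Rhox5, an X-linked homeobox gene, was at 7.56 and 11.3 CPM in ATRXΔRBR, 54.0 and 59.99 CPM in the libraries labelled ATRX KD and 2.37 and 2.42 CPM in WT. Of 25 replication-dependent histone genes, 1 was higher and 1 lower, but their levels were low and only 6 had at least 10 counts in every library. The whole list summed to 47.5 and 72.0 CPM in ATRXΔRBR and to 56.1 and 62.0 CPM in the libraries labelled ATRX KD.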
